A study of Homo sapiens with 6 samples.

Results

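FEM1B encodes a substrate receptor of the cullin-2 ubiquitin ligase, and it was examined here with its paralogs FEM1A and FEM1C and 7 further genes of the same ligase: CUL2, ELOB, ELOC, RBX1, VHL, KLHDC2 and KLHDC3. All 10 had at least 1 probe set with a single gene symbol, 19 probe sets in all, out of 18132 genes and 44988 such probe sets on the array. The group was chosen on measured values, since FEM1B was picked from its rise between the plasmids in these same arrays, while the other 9 genes were listed for their known part in the ligase. FEM1B is therefore described without a test, and its difference supports nothing else.

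The cells were ARPE19, an established line of human retinal pigment epithelium. Each of 6 wells received 2.5 µg of plasmid, which carried GFP alone in the 3 control wells (GFP) and GFP with satellite alpha, a repeat found at human centromeres, in the other 3 (SATalpha). All 6 wells thus received a GFP plasmid, and a culture without plasmid was not analysed here. The labels name neither a time after transfection nor the share of cells that took up plasmid, and they do not say whether the wells came from separate cultures, so p-values rest on well-to-well spread that may be technical.

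Cullin-RING ligases mark proteins with ubiquitin, mostly for destruction by the proteasome. In the cullin-2 ligase, CUL2 is the scaffold, the RING protein RBX1 at one end recruits the ubiquitin-conjugating enzyme, and the elongin B and elongin C pair (ELOB and ELOC) at the other end holds an exchangeable receptor that selects the target. VHL is the receptor for hydroxylated HIF-alpha subunits. KLHDC2 and KLHDC3 recognise certain protein C-terminal ends, as the FEM1 proteins do, and FEM1B also targets the folliculin partner FNIP1 under reductive stress. These steps act on proteins, whereas the arrays measured RNA only.

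The sequence before the start site is shown for the 3 FEM1 paralogs, the family whose signals are set side by side in what follows. Each run is the 250 bases before the start in RefSeq's GRCh38.p14, written 5′ to 3′ on the gene's own strand, and capitals mark GGGCGG or CCAAT on either strand.
FEM1B, chr15:68277495-68277744, plus strand: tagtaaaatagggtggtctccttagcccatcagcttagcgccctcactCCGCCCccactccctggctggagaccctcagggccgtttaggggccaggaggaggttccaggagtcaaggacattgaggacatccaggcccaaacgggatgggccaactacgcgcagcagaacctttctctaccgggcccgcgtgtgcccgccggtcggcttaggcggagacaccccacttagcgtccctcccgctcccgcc
FEM1A, chr19:4791484-4791733, plus strand: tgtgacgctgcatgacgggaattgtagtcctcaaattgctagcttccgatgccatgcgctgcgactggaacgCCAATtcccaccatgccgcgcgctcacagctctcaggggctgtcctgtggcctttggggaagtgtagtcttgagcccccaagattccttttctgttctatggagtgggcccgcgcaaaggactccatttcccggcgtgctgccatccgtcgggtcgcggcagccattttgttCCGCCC
FEM1C, chr5:115544776-115545025, minus strand: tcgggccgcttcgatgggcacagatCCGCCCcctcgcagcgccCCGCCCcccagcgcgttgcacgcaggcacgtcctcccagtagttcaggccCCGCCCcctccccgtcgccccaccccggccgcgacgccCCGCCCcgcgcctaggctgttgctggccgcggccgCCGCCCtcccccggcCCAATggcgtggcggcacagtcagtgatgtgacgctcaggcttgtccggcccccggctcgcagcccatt

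GGGCGG, the core of the GC box, occurred 5 times before FEM1C and 1 time each before FEM1A and FEM1B, and G and C made up 76.4%, 59.2% and 64% of the bases in that order. CCAAT occurred before FEM1A and FEM1C and not in the FEM1B window. Over the 8 members with an entry (all but VHL and ELOC), GGGCGG was found before 8 and CCAAT before 2, compared with 42.6% and 32% of all 35116 promoter entries. The sets are unlike, since members were counted by gene and the entries were not limited to genes tested on these arrays. The E-box CACGTG was found before RBX1 and KLHDC3 (6.34% of entries). Matches of the 3 motifs, searched on both strands, overlapped one another 0 times in the members. The motifs were chosen after the expression values were known, and a match is given as letters, not as a site of binding.

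The deposited values are log2 signals that the authors had normalized between arrays. Array medians lay between 5.29 and 5.32, and correlations over all probe sets were 0.996 to 0.997 within a plasmid and 0.995 to 0.996 between plasmids. Genes were compared through their probe set with the highest mean, above a floor at a mean log2 signal of 5.19. Of 10 markers of retinal pigment epithelium, 7 lay above that floor, while RPE65, RLBP1 and BEST1 did not. The brighter probe set of the keratin KRT18 fell by 0.21 on the log2 scale (limma adjusted p = 0.000675 in the gene fit). The dimmer KRT18 probe set differed by -0.09 with separate groups and was not called (limma adjusted p = 0.151 over all probe sets). The brightest KRT8 probe set differed by -0.13 (adjusted p = 0.0266 in the gene fit), but another one rose by 0.30 (adjusted p = 0.0260 over all probe sets) and 6 more, none of them called, differed by -0.03 to -0.12, so KRT8 has no single direction here. The other 5 tested markers of retinal pigment epithelium were not called. Their differences ran from -0.18 (SERPINF1) to 0.09 (PMEL), and only PMEL was higher. The part of the keratins in the results was not tested. Of the 7 markers of blood, vessel and nerve cells with a probe set, 2 (PECAM1 and SNAP25) lay above the floor, and neither passed the threshold.

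Between the plasmids, FEM1B had the largest difference of the 10 members, 2.04-fold higher under satellite alpha. Of the other 9 members, VHL and FEM1C were higher, KLHDC2 and ELOB were lower, and FEM1A, CUL2, ELOC, RBX1 and KLHDC3 did not pass limma's adjusted p of 0.05. All 10 members passed the filter on dim genes. Of these 9 partners, 4 thus passed, 2 upward and 2 downward, while 7.72% of the 10879 tested genes were called higher, 13.0% lower and 20.8% in either direction. FEM1B, taken from this comparison, is left out of the count. The median difference of the 10 members was 0.02 and that of all tested genes was -0.02.

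**Figure D1:**
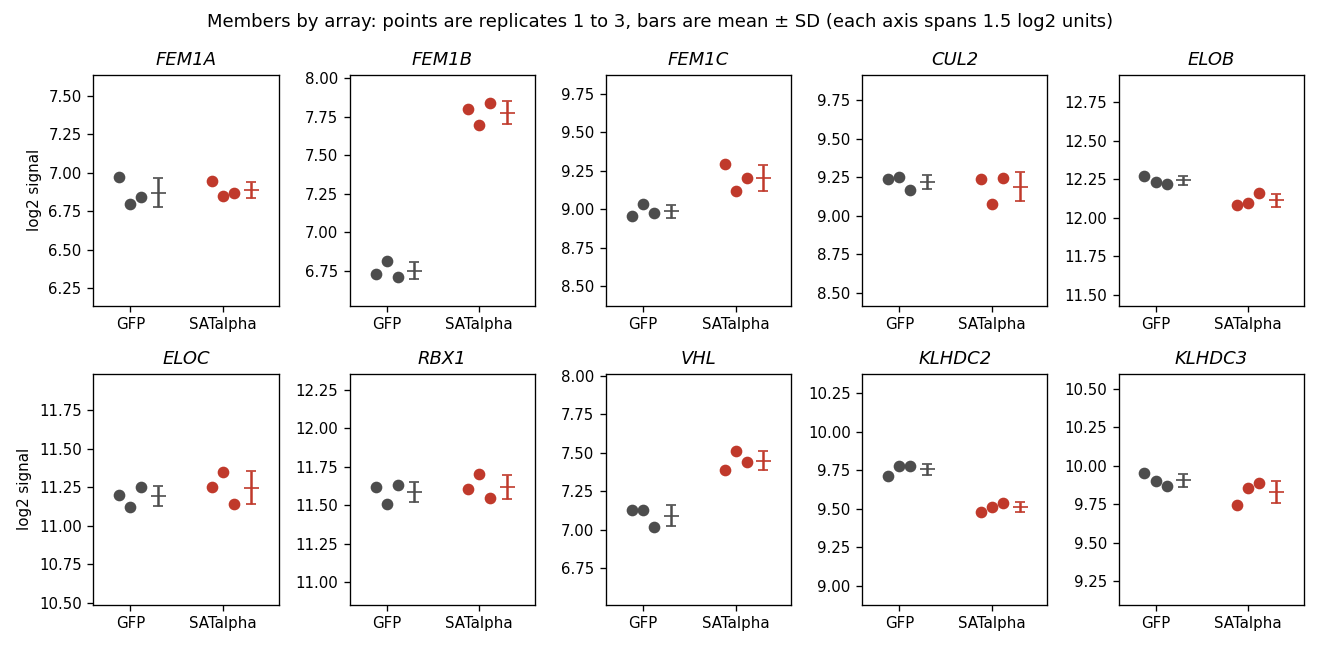
Log2 signal of each member's brightest probe set on the 3 GFP arrays (grey) and the 3 SATalpha arrays (red), with 1 point per array and the mean ± SD (n = 3) beside the points; every axis spans the same number of log2 units. The groups are separate for FEM1B, which was picked for its rise, and for FEM1C, ELOB, VHL and KLHDC2, and overlap for the other 5 genes. They were separate for 4090 of the 10879 tested genes.

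FEM1B was read by a single probe set. Its log2 signal was 6.73, 6.81 and 6.71 on the GFP arrays and 7.80, 7.69 and 7.84 on the SATalpha arrays. The lowest SATalpha value lay far above the highest GFP value, and the arrays of a group were close to one another. The means were 6.75 ± 0.06 and 7.78 ± 0.07 (SD, n = 3), a log2 difference of 1.03 (SE 0.06) or 2.04-fold. Only 1 of the 10879 tested genes had a larger increase. The difference ran from 1.00 to 1.07 when each array was left out in turn. The ID of this probe set ends in _s_at, which Affymetrix gives to probe sets that can match several transcripts, possibly of different genes. No second FEM1B probe set was there to set beside it. In a culture measured in bulk, more RNA per cell and more cells with that RNA cannot be told apart.

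The differences of the paralogs were smaller than that of FEM1B, which had been picked for its size. FEM1A, also read by 1 probe set, stood at 6.97, 6.80 and 6.84 with GFP and at 6.95, 6.85 and 6.87 with SATalpha. Its groups overlapped, with a difference of 0.02 (95% interval -0.13 to 0.16, limma adjusted p = 0.902). FEM1C, which like FEM1A recognises C-terminal ends, had 2 probe sets that disagreed. The brighter one read 8.96, 9.03 and 8.97 with GFP and 9.29, 9.12 and 9.20 with SATalpha. There the groups were separate and FEM1C was higher by 0.22 (SE 0.05, limma adjusted p = 0.00864). The dimmer one read 6.75, 6.53 and 6.69 with GFP and 6.76, 6.51 and 6.46 with SATalpha, with overlapping groups and a difference of -0.08 (SE 0.09). As the mean of both probe sets FEM1C differed by 0.07 and was not called (adjusted p = 0.452, with 0.000546 to 0.452 over all alternatives). FEM1C also missed the threshold when GFP replicate 1 (0.20) or SATalpha replicate 1 (0.17) was dropped, and in an unmoderated test (0.22).

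The scaffold and the RING subunit showed no call. CUL2 read 9.24, 9.25 and 9.17 with GFP and 9.24, 9.08 and 9.24 with SATalpha in its brighter probe set, a difference of -0.03 (95% interval -0.14 to 0.08, limma adjusted p = 0.706). Its other probe set differed by -0.06 (SE 0.06). RBX1 read 11.62, 11.51 and 11.63 with GFP and 11.61, 11.70 and 11.55 with SATalpha, a difference of 0.03 (95% interval -0.06 to 0.13, adjusted p = 0.646), and its other probe set differed by 0.06 (SE 0.06). For both genes the arrays of the plasmids were interleaved.

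Of the elongin pair, ELOB was called lower and ELOC was not called; the difference between the 2 genes was not tested. ELOB read 12.27, 12.23 and 12.22 with GFP and 12.08, 12.09 and 12.16 with SATalpha. All 3 SATalpha arrays were lower, and ELOB fell by 0.13 (SE 0.03, limma adjusted p = 0.0160). Its other probe set differed by -0.12 (SE 0.04), also with separate groups. ELOB no longer passed when GFP replicate 1 (-0.11) or SATalpha replicate 1 (-0.11) was dropped, with no mean-variance trend (-0.13) and in an unmoderated test (-0.13). The alternatives gave ELOB adjusted p-values of 0.00103 to 0.103. ELOC read 11.20, 11.12 and 11.25 with GFP and 11.25, 11.35 and 11.14 with SATalpha, with overlapping groups. It differed by 0.05 (95% interval -0.05 to 0.16, adjusted p = 0.484) and by 0.06 in its other probe set.

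Among the receptors outside the FEM1 family, VHL was higher and KLHDC2 lower. VHL read 7.13, 7.13 and 7.02 with GFP and 7.39, 7.51 and 7.44 with SATalpha. Every SATalpha value exceeded every GFP value, and VHL rose by 0.36 (SE 0.06, limma adjusted p = 0.00135). A second, dimmer VHL probe set read 6.33, 6.36 and 6.50 with GFP and 6.51, 6.43 and 6.28 with SATalpha. That probe set showed overlapping groups and a difference of 0.01 (SE 0.08), so the rise rests on 1 of the 2 probe sets. As the mean of both, VHL differed by 0.18 and was still called, as it was under all 16 alternatives (adjusted p = 0.000574 to 0.0458).

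KLHDC2, a receptor for proteins that end in glycine, read 9.71, 9.78 and 9.78 with GFP and 9.48, 9.51 and 9.54 with SATalpha. The groups were separate and KLHDC2 fell by 0.25 (SE 0.04, limma adjusted p = 0.000970). The call held under all 16 alternatives (adjusted p = 9.54e-05 to 0.0318). KLHDC2 had 1 probe set, so the alternatives that change the probe set left its difference as it was. KLHDC3, a related receptor, had 4 probe sets. The brightest read 9.95, 9.90 and 9.87 with GFP and 9.75, 9.86 and 9.89 with SATalpha, overlapping groups with a difference of -0.08 (95% interval -0.17 to 0.02, adjusted p = 0.262). The others differed by 0.10, 0.01 and -0.02. With array weights KLHDC3 was called at -0.13 (adjusted p = 0.0282, with 0.0282 to 0.968 over all alternatives), and as the mean of its probe sets it differed by 0.0035, so it has no settled direction.

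**Figure D2:**
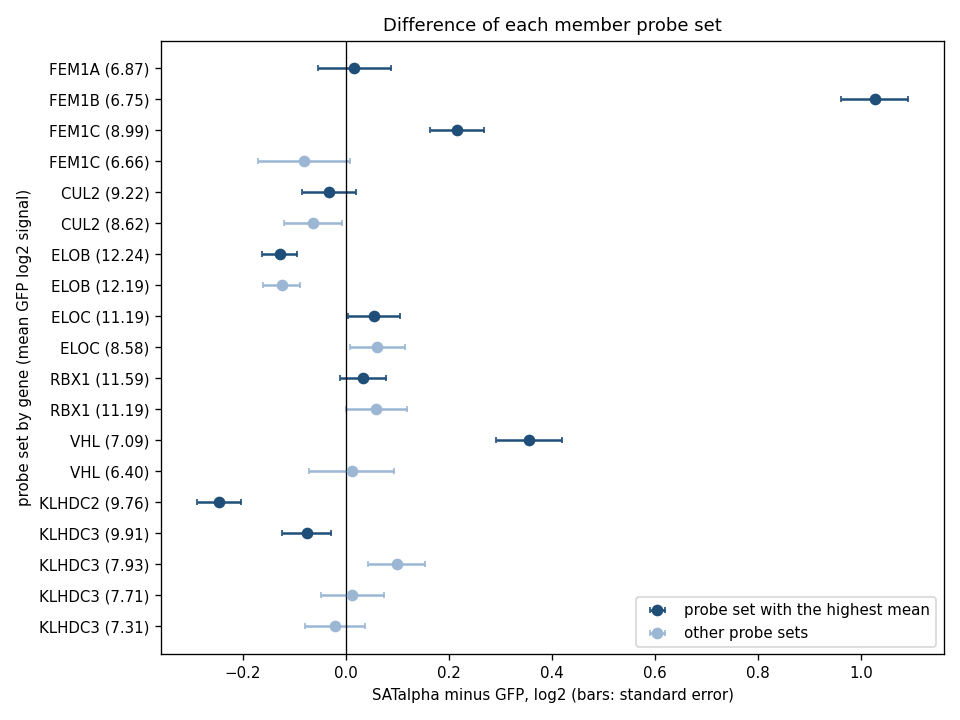
SATalpha minus GFP on the log2 scale for each of the 19 member probe sets, with limma's standard error as bars; dark points are the brightest probe set of a gene, pale points the others, and the mean GFP log2 signal stands beside each name. FEM1B lies at 1.03, the second probe sets of VHL and FEM1C lie near 0.01 and -0.08, and both ELOB probe sets lie below 0.

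FEM1B's own probe set left out, 5 of the 18 probe sets of the partners passed when p-values were adjusted over all 49293 non-control probe sets, of which 8.36% passed. They were that of KLHDC2, both of ELOB, and 1 each of FEM1C and VHL. The SATalpha and GFP arrays did not overlap in 6 of the 18, compared with 26.0% of all probe sets. The one that was separate but not called was the second KLHDC3 probe set, which differed by 0.10 (SE 0.06). These shares are not like for like, since all partner probe sets lay above the floor and the 49293 include dim ones. Of the 10879 genes above the floor, 20.8% passed in the gene fit, and the groups were separate for 4090. Of the 7 members with more than 1 probe set, VHL and FEM1C each had a called and an uncalled probe set.

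**Figure D3:**
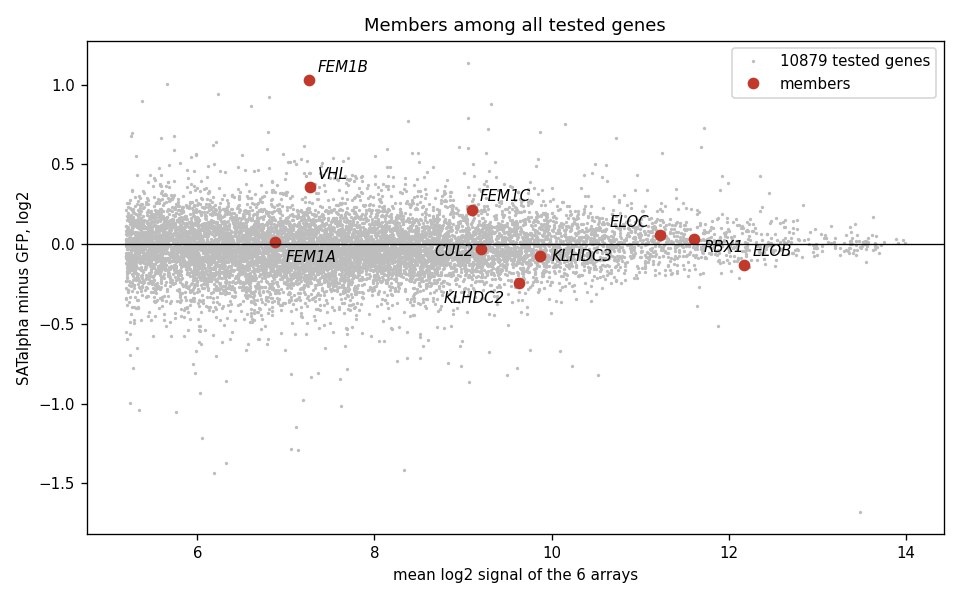
SATalpha minus GFP against the mean log2 signal of the 6 arrays for the 10879 tested genes (grey) and the 10 members (red, 1 point per gene). FEM1B stands near the top of all genes at 1.03, VHL lies at 0.36, KLHDC2 lies at -0.25, and the other members lie between -0.13 and 0.22.

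Genes around the ligase were taken from 6 lists, whose counts stand beside the 20.8% of all tested genes that were called. Of 9 other receptors that dock on CUL2, 5 were tested, and 1 fell and 0 rose by limma, with a median of -0.16. That gene was APPBP2, a receptor for C-terminal ends, which read 7.95, 8.05 and 8.01 with GFP and 7.76, 7.65 and 7.71 with SATalpha. It fell by 0.30 (SE 0.06, adjusted p = 0.00197), and its 4 other probe sets differed by -0.15 to -0.35. Without the _s_at and _x_at probe sets, APPBP2 differed by -0.19 and was not called (adjusted p = 0.124, with 0.00102 to 0.124 over all alternatives).

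Of 10 tested genes for other cullins and their shared subunits, 1 fell and 0 rose, with a median of -0.03 and a range from -0.27 to 0.09. CUL7, the cullin of a growth-related complex, read 6.81, 6.81 and 6.88 with GFP and 6.45, 6.56 and 6.67 with SATalpha, lower by 0.27 (SE 0.07, limma adjusted p = 0.0174). CUL7 missed the threshold when GFP replicate 1 (-0.29), GFP replicate 3 (-0.25) or SATalpha replicate 1 (-0.22) was dropped, and as the mean of its probe sets CUL7 differed by -0.03. The next list held genes of neddylation, the NEDD8 modification that switches cullins on, and of cullin exchange, along with CDC34, UBE2R2, ARIH1 and GLMN. Of its 14 tested genes, 1 fell and 0 rose, with a median of -0.03. It was DCUN1D5, a helper of cullin neddylation, which read 11.05, 11.04 and 11.06 with GFP and 10.86, 10.89 and 10.82 with SATalpha. DCUN1D5 fell by 0.19 (SE 0.03, adjusted p = 0.00150), and its call held under all 16 alternatives. It had a single probe set, so the alternatives that change the probe set left its difference as it was.

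The COP9 signalosome, which removes NEDD8 from cullins, had 2 higher and 1 lower member of 10 tested, with a median of -0.03. COPS2 read 9.79, 9.71 and 9.72 with GFP and 9.95, 9.91 and 9.93 with SATalpha, higher by 0.19 (SE 0.04, limma adjusted p = 0.00417), while its 2 other probe sets differed by 0.04 and -0.04 and the mean of all differed by 0.06, not called. COPS7B was higher by 0.23 (SE 0.06, adjusted p = 0.0195) and no longer passed when GFP replicate 1 (0.24) or GFP replicate 2 (0.21) was dropped. COPS6 was lower by 0.13 (SE 0.04, adjusted p = 0.0309). COPS6 no longer passed when any one of GFP replicates 1 to 3 (-0.13, -0.13 and -0.14) or of SATalpha replicates 2 and 3 (-0.12 for each) was dropped. COPS7A and GPS1 of the same complex were named after their values were seen. In the main fit COPS7A (-0.14, limma adjusted p = 0.0688) and GPS1 (-0.13, limma adjusted p = 0.106) did not pass. Without SATalpha replicate 3, COPS7A (-0.18) and GPS1 (-0.17) were called lower. The other COPS7A probe sets differed by -0.17 to 0.07.

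Of 12 tested substrates and binding partners of the members, 2 rose and 0 fell, with a median of 0.05. FNIP2, which binds folliculin as its paralog FNIP1 does, read 7.22, 7.28 and 7.16 with GFP and 7.76, 7.56 and 7.74 with SATalpha. The groups were separate and FNIP2 rose by 0.47 (SE 0.07, limma adjusted p = 0.000289); its other probe set differed by 0.39, and the call held under all 16 alternatives. FNIP1, the FEM1B substrate, was named after its value was seen. It read 7.05, 7.17 and 7.16 with GFP and 6.93, 7.05 and 6.71 with SATalpha, where the lowest GFP and the highest SATalpha values nearly met. Its difference of -0.23 (SE 0.08) did not pass (adjusted p = 0.0593, the alternatives giving 0.0178 to 0.252), and it passed without SATalpha replicate 2 (-0.31). A second FNIP1 probe set differed by -0.29 with separate groups and did pass over all probe sets (limma adjusted p = 0.0256), while the other two, both below the floor for genes, differed by -0.16 and -0.07 and did not. SELENOK, a selenoprotein whose early-ended forms KLHDC2 recognises, was higher by 0.14 (SE 0.04, adjusted p = 0.0294). The other SELENOK probe set differed by 0.10 with overlapping groups. Over all probe sets neither of them passed (limma adjusted p = 0.0563 for the brighter and 0.202 for the other). Dropping GFP replicate 2 (0.11) or 3 (0.14) ended the SELENOK call, as did dropping SATalpha replicate 1 (0.13) or 2 (0.12). It was also lost with a replicate block, no trend and an unmoderated test. HIF1A, the VHL substrate, differed by -0.02 (SE 0.05, adjusted p = 0.757) and was also named after its value was seen. Without the _s_at and _x_at probe sets HIF1A differed by -0.18 and was called (adjusted p = 0.00420, the alternatives giving 0.00420 to 0.998). All 8 HIF1A probe sets had lower means with SATalpha, with differences from -0.02 to -0.18, and 2 of them passed over all probe sets (limma adjusted p = 0.00865 and 0.0335).

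The last list held elongin A and proteins with a SOCS box, which dock on elongin B and C like VHL, most of them with CUL5 in place of CUL2. Among 9 tested genes 2 were called higher and 2 lower, and the median was 0.12. SOCS2, a brake on growth hormone signalling, read 8.10, 8.21 and 8.06 with GFP and 7.03, 7.12 and 7.18 with SATalpha. The groups were far apart and SOCS2 fell by 1.02 (SE 0.06, limma adjusted p = 1.12e-07). Its second probe set differed by -0.92 (SE 0.10), and the call held under all 16 alternatives.

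SOCS6, which binds receptor tyrosine kinases, read 7.39, 7.29 and 7.27 with GFP and 7.83, 7.86 and 7.60 with SATalpha. It rose by 0.44 (SE 0.07, limma adjusted p = 0.000715), although its other probe set differed by -0.08, and as the mean of both it differed by 0.18 and was not called (adjusted p = 0.0633, with 2.35e-05 to 0.0689 over all alternatives). SPSB2, a receptor for inducible nitric oxide synthase, fell by 0.36 (SE 0.08, adjusted p = 0.00659), a difference that an unmoderated test did not call. WSB1, named after its value was seen, rose by 0.18 (SE 0.05, adjusted p = 0.0117); its 6 other probe sets differed by -0.04 to 0.31. As the mean of its probe sets, at 0.14, it was not called. SOCS4, also named after its values were seen, differed by 0.12 (adjusted p = 0.146) in its brightest probe set and by 0.54, 0.89 and 0.44 in 3 dimmer ones, and as the mean of all it was called at 0.50 (adjusted p = 0.000342, with 0.000342 to 0.350 over all alternatives).

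**Figure D4:**
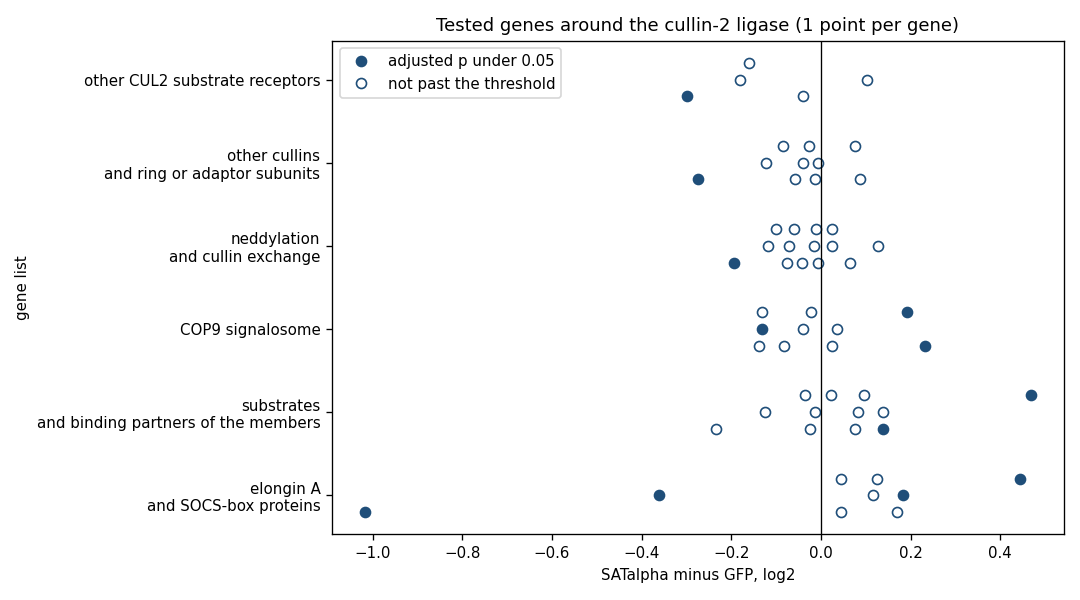
SATalpha minus GFP on the log2 scale for each tested gene of the 6 lists around the ligase, with 1 point per gene, filled where limma's adjusted p was under 0.05; the vertical offset of points in a list only separates them. SOCS2 at -1.02 and FNIP2 at 0.47 are the outermost points, and most other genes lie within 0.30 of 0.

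The tested genes nearest to FEM1B over the arrays were found by the root-mean-square distance between signals centred on each gene's mean of 6 arrays. They were CRYM, a thyroid hormone binding protein (distance 0.083, Pearson r = 0.993), EPM2AIP1, which binds the phosphatase laforin (0.084, r = 0.987), EID3, an SMC5/6 complex subunit (0.088, r = 0.989), HNRNPA3, an RNA-binding protein (0.089, r = 0.993) and TAF13, a subunit of TFIID (0.094, r = 0.985). The r values are over 6 arrays in 2 separate groups, so they mostly restate the difference between the plasmids, and they are a description. CRYM read 8.56, 8.46 and 8.44 with GFP and 9.63, 9.60 and 9.64 with SATalpha, a difference of 1.14. The differences of the other 4 ran from 0.88 to 1.01. EPM2AIP1 had a GFP mean of 5.15, below the floor of 5.19, and passed the filter only through its SATalpha arrays (mean 6.16). Like FEM1B, CRYM, EID3 and TAF13 had a single probe set, whereas the other EPM2AIP1 probe set differed by 0.10 and the other 3 of HNRNPA3 by 0.06, 0.39 and 0.15. None of the 9 other members was among these 5 genes.

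**Figure D5:**
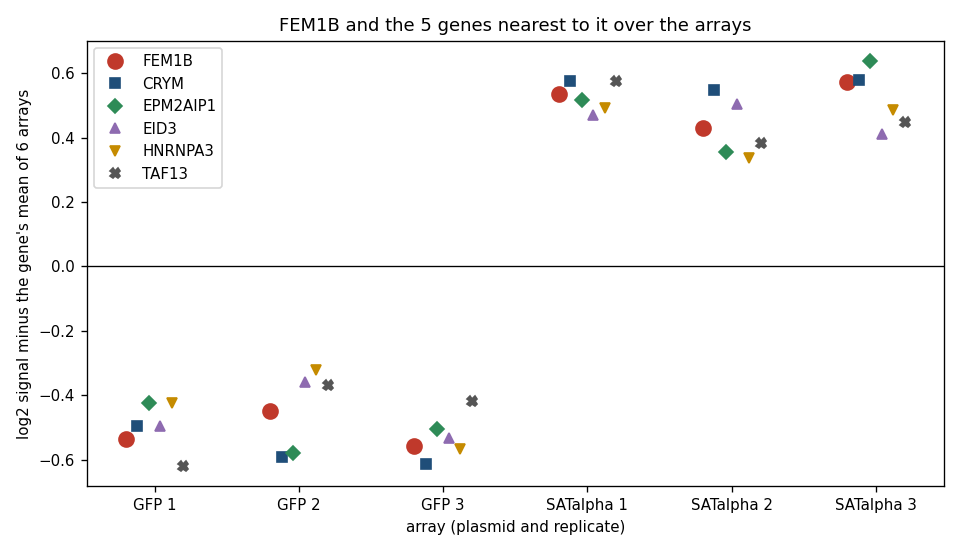
Log2 signal minus the gene's mean of 6 arrays for FEM1B (red circles) and the 5 genes nearest to it, by array. All 6 genes lie below 0 on the 3 GFP arrays and above 0 on the 3 SATalpha arrays, and the order of the replicates within a group differs between genes.

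On chromosome 15, the protein-coding genes next to FEM1B in RefSeq order are ITGA11, an integrin subunit, and CLN6, a membrane protein of the endoplasmic reticulum. They were looked up after the values of FEM1B were known. The brighter CLN6 probe set differed by -0.21 (SE 0.07, limma adjusted p = 0.0518) and the other by 0.09. Both ITGA11 probe sets lay below the floor and differed by 0.12 and -0.14, and neither neighbour had a probe set that passed the threshold.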

How the data were processed

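Total RNA from 6 wells of ARPE19 cells was hybridised to Affymetrix 3′ expression arrays, 3 per plasmid. The deposited values are log2 signals that the authors had normalized across arrays. Base 2 was inferred from the array maxima, and MAS5 and RMA are named in the submitters' processing notes with no role, version or filter. No scan date or batch was given in the sources used here. Of 49372 probe sets, 79 were controls, 44988 had 1 gene symbol in the platform table, 1832 had several and 2473 were not listed. For each of 18132 genes the brightest probe set by mean was used, and the lowest 40% of genes were left out, which left 10879.

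SATalpha was compared with GFP with limma 3.58.1 (R 4.3.3; a linear model and eBayes moderation with trend) over all tested genes, with Benjamini-Hochberg adjustment and a threshold of 0.05. SE is limma's moderated standard error. A second fit took all 49293 non-control probe sets and gave the values of second and further probe sets. The number of arrays limits the precision (median SE 0.06). The fit was tested on simulated data with independent noise in each gene, which cannot speak to effects shared by the genes of a well or array. Promoter sequences came from RefSeq's GRCh38.p14.

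The members, lists and tests were chosen with earlier results of these data known. Named were all members, up to 3 genes past the threshold of each list by smallest p, and the 5 genes nearest to FEM1B; others are marked. Alternatives were other filters, quantile normalization, median centring, the mean of a gene's probe sets, leaving out probe sets whose IDs end in _s_at or _x_at, a replicate block, no trend, array weights, an unmoderated test and each array left out in turn.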

Additional observations from a re-analysis of the deposited data

How the results depend on the processing

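VHL, KLHDC2, DCUN1D5, FNIP2 and SOCS2 kept their direction and call under all 16 alternatives. For KLHDC2 and DCUN1D5, each with a single probe set, the alternatives that change the probe set could not move the difference. FEM1B was picked from its rise in these same arrays, so its values under the alternatives are a description and no support. It differed by 1.00 to 1.07 under the 15 that could be run, since its probe set ends in _s_at. Of 2259 genes past the threshold, the count was 1216 to 2520 with each array left out and 1300 with a replicate block. It was 717 in an unmoderated test and 3328 with array weights. For probe sets (4123) it was 1967 to 4325 with an array left out, 2328 with a replicate block and 1321 with no trend. Partners of FEM1B past the threshold (4) numbered 2 in the unmoderated test and 2 to 4 with an array left out, the 2 being without GFP replicate 1 or SATalpha replicate 1. Those partners numbered 5 with array weights, and 3 as means of probe sets, with a replicate block or with no trend. With arrays left out, counts ran from 0 to 1 for other cullins, 1 to 2 for other receptors, 1 to 4 for the COP9 signalosome and 1 to 2 for substrates. In the unmoderated test they were 0 for other cullins and 1 each for the COP9 signalosome, substrates and SOCS-box proteins. Genes of the neddylation list numbered 2 with no filter and 3 as means of probe sets, where the COP9 signalosome had 1. Other cullins had 0 with the lowest 60% of genes left out and 2 without _s_at and _x_at probe sets, where other receptors had 0. Array weights gave 3 other receptors, 6 COP9 genes and 6 substrates, while the count over all 10879 tested genes also rose, to 3328. No trend gave 1 substrate. With arrays left out FEM1A ran from -0.020 to 0.068, RBX1 from -0.0084 to 0.069 and CUL2 from -0.060 to 0.022, and KLHDC3 turned to 0.0035 as a mean of probe sets. The causes were not tested. Deviations of same-numbered wells had correlations of -0.0035, -0.24 and -0.29. So few values cannot show whether the replicate numbers pair the wells, and the labels do not say. A replicate block gave 1 COP9 gene and 1 substrate, and ELOB lost its call (-0.13, limma adjusted p = 0.0697). Without scanner files, signal could not be set against background.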
